A study of Mus musculus with 5 samples.

Results

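The enzymes described here build and cap the sugar chains of mucins and related glycoproteins. They were taken as all array probe sets annotated to 1 gene symbol that starts with Galnt, B3gnt, B3galt, B4galt, C1galt, Gcnt, Fut, St3gal, St6gal, St6galnac or St8sia followed by a number. The rule found 99 of the 22626 probe sets tested, for 57 of the 12393 genes that the array names with 1 symbol, in 11 prefix groups. Of 72 protein-coding mouse genes of these names in RefSeq, the 15 without such a probe set were not analysed here, among them B3gnt6, the core 3 enzyme, and Galnt12. The prefixes also take in enzymes that work mainly on other carriers, such as Fut8 on N-glycans, B4galt7 and B3galt6 on the linker of proteoglycans, and B4galt6, St3gal5 and St8sia1 on glycolipids.

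Mucin-type O-glycans begin in the Golgi, where a Galnt enzyme puts N-acetylgalactosamine on a serine or threonine of the protein. C1galt1, which needs the chaperone C1galt1c1 (also called Cosmc), adds galactose to give core 1, and Gcnt and B3gnt enzymes make the branched and the core 3 forms. The chains are then lengthened by B3gnt, B4galt and B3galt enzymes and capped with fucose (Fut) or sialic acid (St3gal, St6gal, St6galnac and St8sia). In the colon these glycans make up most of the mass of the mucins that goblet cells secrete.

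The HNF4 null colons had the genotype HNF4LoxP/LoxP FoxA3Cre and gave 3 arrays (null_59, null_60 and null_426). The control colons had the genotype HNF4LoxP/+ FoxA3Cre and gave 2 arrays (CONTROL_406 and CONTROL_421), so they carried 1 floxed allele and the same Cre transgene, and no wild type was included. All were fetal colons of stage E18.5. The labels number the samples but do not say whether each was 1 embryo or a pool, so p-values measure the spread between these samples. The Cre is named for Foxa3, a gene of the gut endoderm, from which the epithelium but not the muscle or connective tissue of the colon derives, and the RNA is labelled as that of the colon, with no layer or cell type named. In such bulk tissue, fewer cells of a type and less RNA per cell cannot be told apart.

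The values are intensities as deposited, on a linear scale. Log2 differences are HNF4 null minus control on quantile-normalised log2(intensity + 16), and they understate the change of dim probe sets. Median intensities were 129.9 to 135 in HNF4 null and 124 to 132 in control arrays. For Gapdh, the array's 3′ control probe set divided by its 5′ one, a sign of RNA quality, gave 0.794 to 0.895 in the HNF4 null arrays, 0.767 in CONTROL_406 and 1.47 in CONTROL_421. The same ratio for actin was 1.76 in CONTROL_421 and 1.44 to 1.83 in the other arrays. For the transferrin receptor it was lowest in CONTROL_421, at 1.51 against 2.69 to 3.48, so the ratios gave no common ranking of this array. Of the 4 Hnf4a probe sets 0 passed limma's threshold of an adjusted p under 0.05, and 1 had an unadjusted p under 0.05. It read 344, 348 and 357.5 in HNF4 null colons, against 639.9 and 442 in control colons (log2 difference -0.55 ± 0.19, SE, adjusted p = 0.603). The brightest read 649.8, 746 and 722.5 in HNF4 null and 945 and 991 in control colons, also with the null arrays below (-0.35 ± 0.17, SE), and the other two differed by 0.14 and 0.19 and overlapped. The sources used here do not say which exons are floxed, so Hnf4a probe sets may lie outside the deletion and do not check the genotype. Colonic epithelium was present in every array. The 13 measured epithelial markers, among them Epcam, Cdh1, Krt8 and Cdx2, summed to 16581 to 19797 in HNF4 null and 19813 to 21830 in control colons. The median difference of this list was -0.24, and none of its genes passed the threshold. Car1, Cdh17, Cdx1, Epcam, Krt20 and Vil1 had an unadjusted p under 0.05 in limma's test, all lower (-0.87 to -0.50). Over all probe sets, where every probe set of a gene counts, 4.33% were lower at that level. Krt18, Krt19, Car4 and Lgals4 differed by 0.01 to 0.29. The 8 measured goblet cell markers summed to 12692 to 16520 in HNF4 null and 16879 to 17469 in control colons. Zg16 was the 1 that fell at the threshold. It read 131, 217 and 279 in HNF4 null and 1261 and 1548 in control colons, and these values are part of the sums. Agr2, Clca1, Clca3a1, Fcgbp, Spink4 and Tff3 overlapped between the groups, so the gap between the sums was not shared by these markers. The median difference of the goblet list was -0.03, and Spdef, a goblet cell transcription factor named after its values were seen, read 445, 349 and 279.7 in HNF4 null and 254 and 196 in control colons (0.61 ± 0.22, SE, adjusted p = 0.616). Leukocyte markers also summed lower, to 824 to 979 in HNF4 null and 1006 to 1084 in control colons, with a median difference of -0.07. Among them Ctss read 157, 166.5 and 93.3 in HNF4 null and 287 and 252 in control colons (-0.94). Csf1r, Lyz2 and Ptprc overlapped, and Cd68 differed by 0.11. The 5 smooth muscle markers summed to 13649 to 15056 in HNF4 null and 11158 to 13830 in control colons. No member of these lists had a mean under 16. The part of these sums in the differences below was not tested.

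Of the 99 glycosyltransferase probe sets, 0 passed limma's threshold in either direction, against 0.124% of all probe sets tested (28 of 22626). The smallest adjusted p was 0.172. Without adjustment, 4 of the 99 (4.04%) had p under 0.05, against 7.15% of all probe sets. Lower in HNF4 null colons were 2 of the 99 (2.02%), against 4.33% of all probe sets, and higher were 2 of the 99 (2.02%), against 2.82%. The lower ones were C1galt1c1 and Fut8, and the higher ones were dim probe sets of B3galt1 and Gcnt2. This count was 7 without null_59, 5 without null_60 and 5 without null_426. The count past the adjusted threshold was 0 in each of these fits. The matching share of the whole array is not given for these fits, so their counts cannot be set against the 7.15%.

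The members' differences lay close to 0. Their median was 0.01 on the log2 scale (0.02 over all probe sets), and the middle 50% ran from -0.12 to 0.17 (-0.14 to 0.16 over all probe sets). A log2 difference larger than 0.5 in size was seen in 5 of 99 (5.05%, against 5.86% of all probe sets) and one larger than 1 in 1 (1.01%, against 0.623%). The 95% interval of the difference lay within a 2-fold change in either direction for 91 of the 99 probe sets (91.9%, against 93.4% of all probe sets). The 8 exceptions were 1 probe set each of Galnt7, B3gnt4, B4galt4, Fut8, St6galnac2 and St8sia1 and both of B3galt1. On the normalised scale, all 3 HNF4 null arrays lay below both control arrays for 7 members (11.6% of all probe sets did) and above both for 10 (12.0% of all probe sets), and the arrays of the groups overlapped for the other 82.

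**Figure D1:**
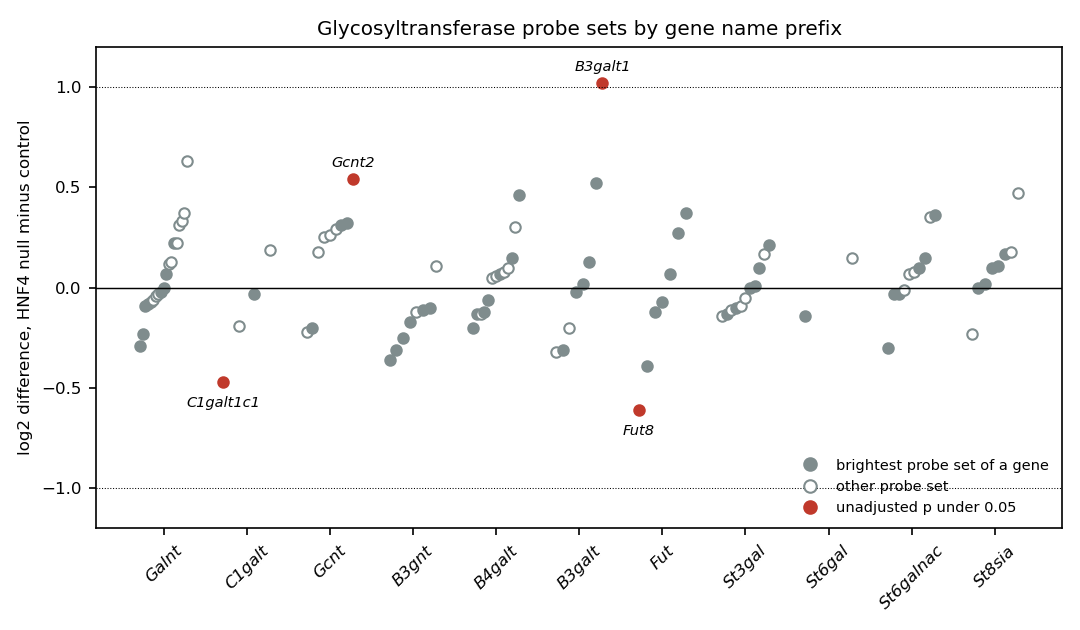
Log2 difference (HNF4 null minus control) of each of the 99 glycosyltransferase probe sets, grouped by gene name prefix in the order of chain building. Filled points are the brightest probe set of a gene, open points its other probe sets, red points those with an unadjusted p under 0.05, and dotted lines mark a 2-fold change; 98 points lie within the dotted lines.

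The Galnt group starts the chains, and 0 of its 19 probe sets, for 9 genes, had an unadjusted p under 0.05 (7.15% of all probe sets did). Galnt1 and Galnt2 are broadly expressed starters. By its brightest probe set, Galnt1 read 453, 468 and 535 in HNF4 null colons and 501 and 563 in control colons, and the groups overlapped (-0.08 ± 0.18, SE, adjusted p = 0.926). The brightest probe set of Galnt2 read 430.0, 535 and 384 in HNF4 null colons and 486 and 489 in control colons. Both controls fell inside the range of the null arrays (-0.09 ± 0.17, SE). The other probe sets of these genes differed by -0.06 for Galnt1 and by -0.03 and 0.13 for Galnt2.

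Galnt3, Galnt4 and Galnt7 are expressed in mucus-secreting epithelia, and Galnt4 and Galnt7 act largely on peptides that already carry a sugar. Galnt3 read 256, 294 and 309.9 in HNF4 null colons, against 317 and 408 in control colons, by its brightest probe set. The null arrays were the lower ones in the deposited values, yet the difference was within its error (-0.29 ± 0.19, SE, adjusted p = 0.780), and the gene's other probe sets differed in the opposite direction. The brighter of these read 191, 194 and 198 in HNF4 null and 129 and 161 in control colons (0.37 ± 0.17, SE, adjusted p = 0.709). The probe sets of this gene therefore gave no common direction.

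Galnt4 read 399, 405.5 and 284 in HNF4 null colons and 459 and 398 in control colons by its brightest probe set, with null_426 the lowest array (-0.23 ± 0.19, SE). Its other probe sets differed by 0.33 and 0.12. Galnt7 read 569, 507 and 302 in HNF4 null colons and 439 and 466 in control colons by its brightest probe set (0.00 ± 0.25, SE, 95% interval -0.56 to 0.56). Its lowest array was again null_426, and the null arrays spanned 0.88 on the log2 scale. The dimmest probe set of Galnt7 had the largest difference of the group, 0.63, with an SE of 0.38, and read 300.0, 189 and 125.5 in HNF4 null and 181.5 and 70.1 in control colons. Galnt6, Galnt10, Galnt11 and Galnt16 differed by -0.07 to 0.22.

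The C1galt group holds the core 1 enzyme and its chaperone. C1galt1c1 read 450.4, 514 and 373 in HNF4 null colons, against 671 and 604.5 in control colons. All 3 null arrays lay below both controls. The log2 difference was -0.47 ± 0.17 (SE, 95% interval -0.87 to -0.08), with an unadjusted p of 0.0222 and an adjusted p of 0.642, so it did not pass. Its value ran from -0.38 to -0.55 with each array left out in turn. The unadjusted p in limma's test was 0.0508 without null_59, 0.0176 without null_60 and 0.0611 without null_426. The second, dimmer probe set of C1galt1c1 read 47.3, 28.3 and 50.5 in HNF4 null and 44.4 and 45.4 in control colons and overlapped (-0.19 ± 0.21, SE).

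C1galt1 itself, the transferase that C1galt1c1 folds, read 324, 237 and 252.5 in HNF4 null colons and 272 and 282 in control colons. Both controls lay between the null arrays (-0.03 ± 0.19, SE, 95% interval -0.46 to 0.39). Its other probe set read 344, 144 and 246 in HNF4 null and 254 and 158 in control colons (0.19 ± 0.32, SE), and spread more within the null group than between the groups.

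The Gcnt enzymes branch the chains. Gcnt1 makes core 2, and Gcnt3, the mucus-type enzyme of the gut, makes core 2 and core 4. Gcnt3 read 169, 147 and 148 in HNF4 null colons and 147 and 93.6 in control colons. CONTROL_421 was the lowest array and CONTROL_406 stood level with the null arrays (0.31 ± 0.19, SE, adjusted p = 0.777). Gcnt1 read 47.8, 52.8 and 61.6 in HNF4 null and 49.8 and 25.7 in control colons, again with CONTROL_421 lowest (0.32 ± 0.19, SE, adjusted p = 0.771). CONTROL_421 has the highest Gapdh ratio but the lowest transferrin receptor ratio, and its part in these values was not tested.

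Gcnt2, which makes the branched blood group I structure, had 7 probe sets, the most of any member. A dim probe set of it read 22.6, 29.6 and 28.3 in HNF4 null colons, against 11.3 and 12.7 in control colons. The null arrays were all higher (0.54 ± 0.17, SE, unadjusted p = 0.0106, adjusted p = 0.578), at levels near the 16 added before the log. The difference was 0.98 with 1 added and 0.23 with 64 added. The brightest probe set of Gcnt2 read 84.0, 74.2 and 78.0 in HNF4 null and 100.6 and 75.7 in control colons and overlapped (-0.20 ± 0.17, SE). Over the 7 probe sets the differences ran from -0.22 to 0.54.

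The B3gnt enzymes add N-acetylglucosamine and extend the chains. In this group 0 of 8 probe sets, for 6 genes, had an unadjusted p under 0.05, against 7.15% of all probe sets. Of the 8 differences, 7 were below 0, from -0.36 to -0.10, and the 1 above 0 was a probe set of B3gnt2 (0.11). Over all probe sets 10649 of 22626 differences were below 0, and in the Gcnt group 7 of 9 were above 0. B3gnt3, which extends core 1, read 215, 124 and 170.1 in HNF4 null colons, against 191.5 and 224 in control colons. Its groups overlapped, with null_59 above CONTROL_406 (-0.31 ± 0.23, SE, 95% interval -0.82 to 0.21). B3gnt5, which starts a class of glycolipid chains, read 226, 267 and 187 in HNF4 null and 229.8 and 254 in control colons by its brightest probe set (-0.11 ± 0.19, SE). B3gnt4 and B3gnt9 read lowest in null_60, at 17.7 and 89.9, and null_59 stood above CONTROL_406 for both.

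HNF4 factors bind direct repeats of the nuclear receptor recognition sequence, and the letters CAAAGTCCA are a preferred form. RefSeq promoter windows (GRCm38.p6), from 250 bases before to 50 bases after a start site, matched 40 of the 57 member genes with 58 windows. Exactly these 9 letters were looked for on both strands. They stood in 1 of the 58 windows, that of B3gnt3, and in 0.475% of all 32851 windows in the table. The B3gnt3 window is printed because it was the only member window with these letters, which are in capitals; it lies at chr8:71701751-71702050 on the minus strand and is written 5′ to 3′ along the gene.
B3gnt3 promoter: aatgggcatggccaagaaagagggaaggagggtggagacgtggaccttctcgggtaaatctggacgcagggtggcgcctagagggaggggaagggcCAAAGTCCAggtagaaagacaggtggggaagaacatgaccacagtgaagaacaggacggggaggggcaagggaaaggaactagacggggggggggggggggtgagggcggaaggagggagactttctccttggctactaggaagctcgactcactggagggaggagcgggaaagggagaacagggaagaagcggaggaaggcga
The match begins 154 bases before the start site. It describes the letters of this window only, and the B3gnt3 difference given above did not pass.

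The B4galt enzymes add galactose to N-acetylglucosamine. In this group 0 of 13 probe sets, for 7 genes, had an unadjusted p under 0.05, against 7.15% of all probe sets. B4galt1, the broadly expressed member, read 465, 505 and 331 in HNF4 null colons and 444 and 382.5 in control colons. Both controls lay between the null arrays (0.07 ± 0.20, SE, 95% interval -0.37 to 0.51). B4galt4 read 139.9, 76.9 and 58.4 in HNF4 null and 67.4 and 43.1 in control colons. It was high in null_59 alone, with the other null arrays near the controls (0.46 ± 0.31, SE, 95% interval -0.23 to 1.14). B4galt2, B4galt3, B4galt5, B4galt6 and B4galt7 differed by -0.20 to 0.30.

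The B3galt enzymes make type 1 chains and related structures, and B3galt5 is the member known from colonic epithelium. B3galt5 read 171, 94.6 and 124 in HNF4 null colons and 153 and 77.6 in control colons. Null_59 was the highest array and CONTROL_421 the lowest, and the groups overlapped (0.13 ± 0.28, SE). B3galt1 had the smallest p of all members, from a probe set with intensities near 0, which read 12.3, 19.4 and 28.4 in HNF4 null colons, against -10.5 and 0.489 in control colons. The log2 difference of 1.02 ± 0.20 (SE, unadjusted p = 0.000513, adjusted p = 0.172) depends on the value added before the log, and was 3.46 with 1 added and 0.35 with 64 added. The brighter probe set of B3galt1 read 83.8, 100.7 and 133 in HNF4 null and 46.8 and 88.6 in control colons. CONTROL_421 lay inside the range of the null arrays there (0.52 ± 0.26, SE, adjusted p = 0.730). B3galt6 read 249.5, 196 and 278 in HNF4 null and 324 and 284.5 in control colons, with all null arrays below the controls (-0.31 ± 0.19, SE, adjusted p = 0.773). Both probe sets of B3galt2 and 1 of B3galt6 had means under 16, as did this one of B3galt1.

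The Fut enzymes add fucose. Fut8, which puts core fucose on N-glycans rather than on mucin O-glycans, read 417, 381 and 272 in HNF4 null colons, against 490.1 and 624 in control colons. All 3 null arrays lay below both controls. The log2 difference was -0.61 ± 0.22 (SE, 95% interval -1.10 to -0.13), the most negative of any member, with an unadjusted p of 0.0189 and an adjusted p of 0.620. Without CONTROL_421, the highest array, it was -0.42, and without CONTROL_406 it was -0.80. The unadjusted p of Fut8 in limma's test was 0.0114 without null_59, 0.0367 without null_60 and 0.0563 without null_426.

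Fut2 and Fut1 add the terminal fucose of the blood group H structure, and Fut2 is the enzyme of mucus-secreting epithelia. Fut2 read 218, 161 and 186 in HNF4 null colons and 266 and 142 in control colons. The controls were the highest and the lowest of the 5 arrays (-0.07 ± 0.24, SE, 95% interval -0.61 to 0.47). Fut1 read 101.8, 100.1 and 113 in HNF4 null colons, against 77.6 and 81.5 in control colons. Its null arrays were all higher, by a difference that did not pass (0.27 ± 0.16, SE, adjusted p = 0.765). Fut4 differed by -0.39 with its null arrays below both controls (adjusted p = 0.733), and Fut7, Fut9 and Fut10 differed by -0.12, 0.37 and 0.07. Fut9 had a mean under 16.

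**Figure D2:**
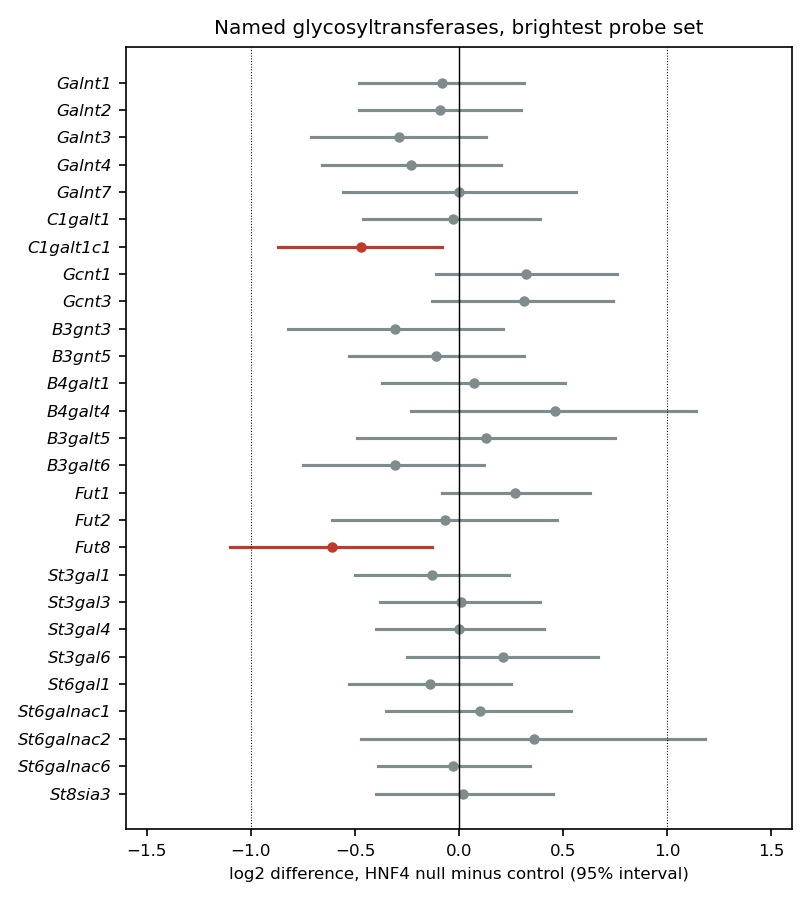
Log2 difference (HNF4 null minus control) with its 95% confidence interval for the 27 named glycosyltransferases shown by their brightest probe set. Red marks the genes with an unadjusted p under 0.05, C1galt1c1 and Fut8, and dotted lines mark a 2-fold change, which the intervals of Fut8, B4galt4 and St6galnac2 reach.

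Sialyltransferases made up 31 of the 99 probe sets and 18 of the 57 genes. Of these probe sets 0 had an unadjusted p under 0.05, against 7.15% of all probe sets. The St3gal enzymes cap galactose. Over their 11 probe sets the differences ran from -0.14 to 0.21, the narrowest range of the groups with more than 4 probe sets. St3gal4 read 134, 108 and 102 in HNF4 null colons and 115 and 102 in control colons (0.00 ± 0.18, SE, 95% interval -0.40 to 0.41). St3gal6 read 279, 188 and 194 in HNF4 null and 190.3 and 176 in control colons, high in null_59 alone (0.21 ± 0.20, SE), and its other probe set differed by 0.17. St3gal1, which caps core 1, read 49.98, 39.98 and 48.1 in HNF4 null and 50.4 and 44.6 in control colons and overlapped (-0.13 ± 0.16, SE). St3gal3 differed by 0.01 at its brightest probe set.

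St6gal1 caps N-glycans and read 629.9, 692 and 499 in HNF4 null colons and 726 and 647 in control colons by its brighter probe set. Null_60 lay between the controls and null_426 was the lowest (-0.14 ± 0.17, SE). Its other probe set differed by 0.15 ± 0.23 (SE).

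Some St6galnac enzymes, such as St6galnac1, put sialic acid on the first sugar of O-glycans, which gives the sialyl-Tn structure and its relatives. St6galnac1 read 89.8, 124 and 84.0 in HNF4 null colons and 92.1 and 79.0 in control colons, with null_60 the highest array (0.10 ± 0.20, SE, 95% interval -0.35 to 0.54). St6galnac2 varied most between controls of all members: it read 633, 610.2 and 962 in HNF4 null colons and 374 and 912 in control colons. The controls stood 1.28 apart on the log2 scale, further than the groups did (0.36 ± 0.37, SE). Its other probe set had a mean under 16 and differed by -0.01. St6galnac6 read 805, 921 and 687 in HNF4 null and 878.5 and 840.3 in control colons, and both controls lay between the null arrays (-0.03 ± 0.16, SE). St6galnac3, St6galnac4 and St6galnac5 differed by -0.30 to 0.35 over their probe sets.

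The St8sia enzymes add sialic acid to sialic acid, on gangliosides and on the polysialic acid of neural cells. In this group 0 of 8 probe sets had an unadjusted p under 0.05 (7.15% of all probe sets did), and the differences ran from -0.23 to 0.47. St8sia3 read 529, 444 and 572.5 in HNF4 null colons and 533 and 509 in control colons (0.02 ± 0.19, SE). Both probe sets of St8sia2, a polysialic acid enzyme, had all null arrays above the controls, by 0.18 ± 0.16 and 0.17 ± 0.16 (SE, adjusted p = 0.829 and 0.830). Markers of enteric neurons and glia summed to 1034 to 1304 in HNF4 null and 894 to 1189 in control colons, and their part in these values was not tested.

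The gap between the 2 control arrays exceeded the size of the group difference for 62 of the 99 probe sets (62.6%, against 60.1% of all probe sets). Null_59 was the highest of the 5 arrays for 27 members (27.3%, against 15.2% of all probe sets). Null_426 was the lowest for 26 (26.3%, against 23.5% of all probe sets) and CONTROL_421 for 23 (23.2%, against 22.7%). Of the 30 genes with several probe sets, 16 had differences of both signs.

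**Figure D3:**
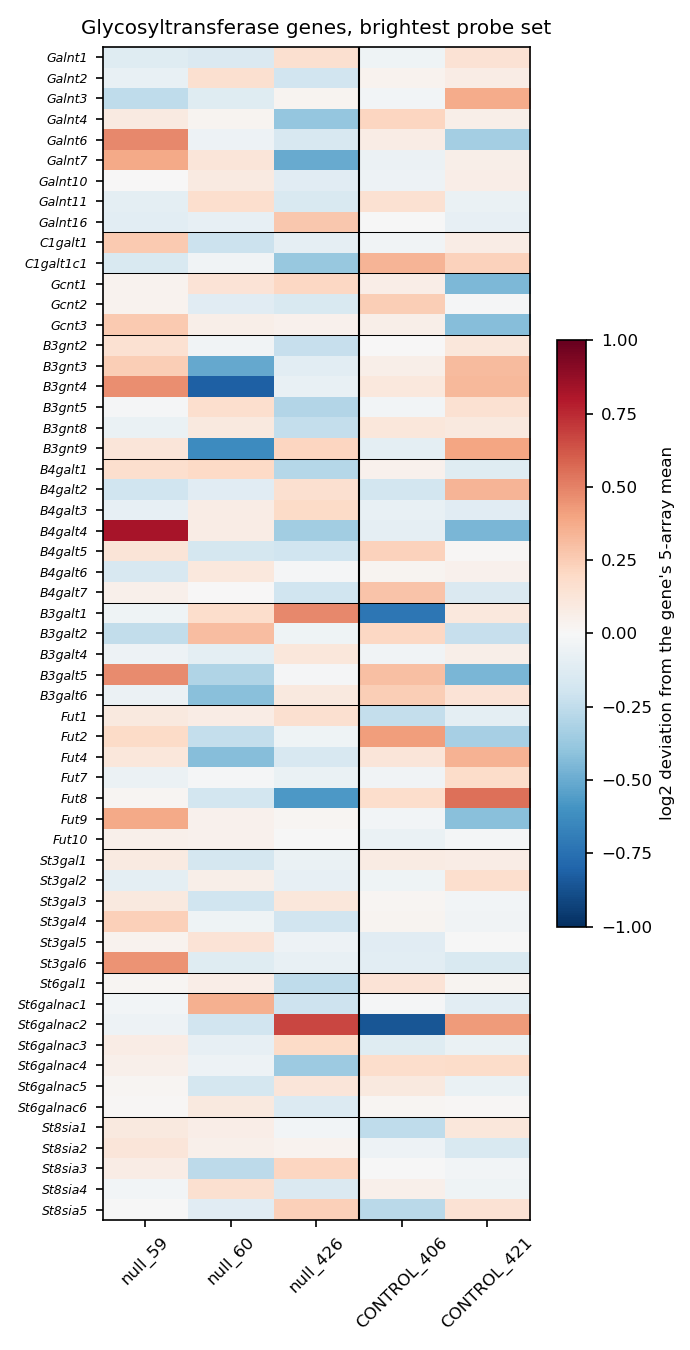
Deviation of each array from the gene's mean over the 5 arrays (log2, colour scale from -1 to 1) for the brightest probe set of the 57 genes, with HNF4 null arrays left and control arrays right of the vertical line and horizontal lines between prefix groups. Single arrays, such as null_59 in B4galt4 and CONTROL_406 in St6galnac2, stand out more than the groups do.

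Other genes of the pathway were read by each gene's brightest probe set. Among 19 measured genes for donor sugars and their transporters, 0 passed the threshold and the median was -0.03. By the brightest probe set, 2 of the 19 (10.5%) had an unadjusted p under 0.05, both lower. Over all probe sets, where every probe set of a gene counts, 4.33% were lower at that level. A dim probe set of Uap1 went the other way, by 0.66 (limma, unadjusted p = 0.0154). Slc35b2, which carries the sulfate donor into the Golgi, read 255, 405 and 315.5 in HNF4 null colons, against 755.5 and 569.6 in control colons (-0.96 ± 0.21, SE, adjusted p = 0.268). Slc35c1, the GDP-fucose transporter, read 95.1, 110.1 and 63.9 in HNF4 null and 177 and 136 in control colons (-0.77 ± 0.23, SE, adjusted p = 0.561). In both genes all null arrays lay below the controls. Gne, which makes the precursor of sialic acid, read 911, 893 and 748 in HNF4 null and 781 and 657 in control colons, with null_426 between the controls in the deposited values (0.31 ± 0.16, SE, adjusted p = 0.746).

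Among 17 measured transferases outside the prefixes, 0 passed the threshold and the median was -0.09. By the brightest probe set, 6 of the 17 (35.3%) had an unadjusted p under 0.05, all lower. Over all probe sets, where every probe set of a gene counts, 4.33% were lower at that level. Dimmer probe sets of Ogt went the other way, by 0.47 and 0.48 (limma, unadjusted p = 0.0396 and 0.0298). B4galnt1, the GM2 and GD2 ganglioside synthase, read 17.4, 51.8 and 9.94 in HNF4 null colons, against 115 and 73.7 in control colons (-1.53 ± 0.36, SE, adjusted p = 0.344). The size depends on the value added before the log, and was -2.17 with 1 added and -0.85 with 64 added. Its other, dimmer probe set read 9.47, 20.8 and 32.2 in HNF4 null and 5.14 and 24.1 in control colons and overlapped (0.22 ± 0.33, SE), so the probe sets of B4galnt1 gave no common direction. A4galt, which makes the globoside precursor, and B3galnt1, which makes globoside, differed by -0.54 each (adjusted p = 0.545 and 0.593). A4galt is dim, and its difference was -0.90 with 1 added and -0.24 with 64 added. The others of the 6 were B4galnt2, Mgat3, which bisects N-glycans, and Pofut2, which fucosylates thrombospondin repeats, all 3 named after their values were seen. B4galnt2, which makes the Sd(a) blood group structure of colonic glycans, read 506.5, 536 and 268.5 in HNF4 null and 687.5 and 679 in control colons, with all null arrays below the controls (-0.65 ± 0.27, SE, adjusted p = 0.680). Without null_426 the difference was -0.36. A second probe set of B4galnt2 went the other way, with 179.9, 149 and 142 in HNF4 null and 129 and 113 in control colons (0.29 ± 0.17, SE, adjusted p = 0.771). The other probe sets of Pofut2 differed by -0.47, 0.05 and 0.25.

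None of the 7 measured sulfotransferases of glycans had an unadjusted p under 0.05 in limma's test (7.15% of all probe sets did), and none passed the adjusted threshold. Gal3st1 differed by -0.26, Chst5 by -0.15 and Chst4 by -0.14. Of 11 measured mucin core proteins and relatives, 1 fell at the threshold, against 0.124% of all probe sets past it in either direction. By the brightest probe set, 2 of the 11 (18.2%) had an unadjusted p under 0.05, both lower. Over all probe sets, where every probe set of a gene counts, 4.33% were lower at that level. Muc3, a membrane mucin of enterocytes, read 118, 62.8 and 61.9 in HNF4 null colons, against 293 and 473 in control colons (-2.07 ± 0.29, SE, adjusted p = 0.0432). Its adjusted p was 0.209 without null_60, 0.185 without null_426 and 0.251 without CONTROL_421, so the call was lost without any of these arrays. Muc13 differed by -0.94 (adjusted p = 0.268) and Muc4 by 0.45 (adjusted p = 0.702), and the median of the list was 0.19. The goblet cell mucin Muc2 was not analysed here.

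**Figure D4:**
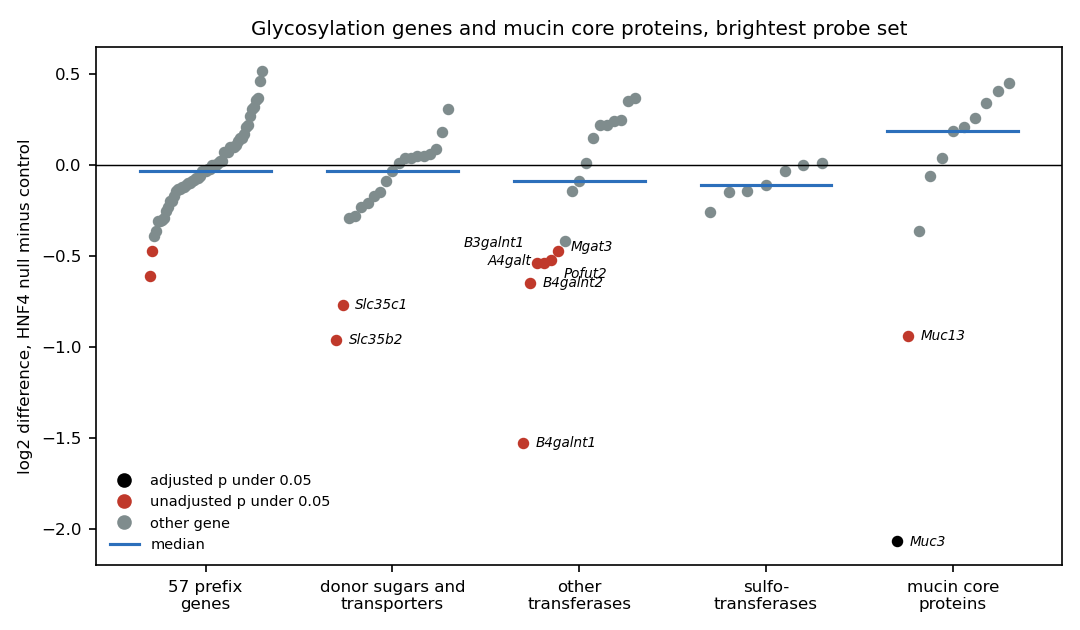
Log2 difference (HNF4 null minus control), brightest probe set a gene, for the 57 prefix genes and 4 lists of other glycosylation genes and mucin core proteins; blue bars are medians. Muc3 (black, -2.07) is the 1 gene past the adjusted threshold, red points had an unadjusted p under 0.05, and the medians of the 5 columns lie between -0.11 and 0.19.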

How the data were processed

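Expression in fetal mouse colon was measured on 5 Affymetrix arrays from biotin-labelled total RNA, per the labels' protocols. The authors deposited 1 intensity per probe set on a linear scale. How probes were summarised, scaled and background-corrected is not given in the sources used here, and some values lie below 0. Of 22690 probe sets, 64 array-maker controls were left out. The platform annotation gave 1 symbol to 20380 and several to 691 of the rest. All 99 member probe sets matched RefSeq (GRCm38.p6) by gene ID, and 0 symbols changed.

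Values below 0 were set to 0, 16 was added, and log2 values were quantile-normalised, as the medians of the arrays spanned 0.11 on the log2 scale. HNF4 null was compared with control in limma 3.58.1 (R 4.3.3) with lmFit and eBayes, as a two-sided test with 9.33 total degrees of freedom and no covariate, and with Benjamini-Hochberg adjustment over 22626 probe sets and a threshold of 0.05. The number of arrays limits the precision.

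Given with every array's value were members at an unadjusted p under 0.05, the brightest of each prefix group and members with a textbook role in mucin glycans, whose further probe sets are given in part by their difference alone. From each pathway list, genes past the threshold and the 3 with the smallest p were named. The members, lists and alternatives were chosen with earlier results of these data known. The alternatives were deposited scaling, median centring, 1 or 64 added, dim probe sets left out, a robust prior with an intensity trend, array weights and each array left out.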

Additional observations from a re-analysis of the deposited data

How the results depend on the processing

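The count of glycosyltransferase probe sets past limma's threshold was 0 under each of the 12 alternatives, with a smallest adjusted p among the named members of 0.13 (B3galt1, values as deposited); at an unadjusted p under 0.05 the count was 2 of the 44 members left once dim ones were dropped, 8 (7 higher and 1 lower) with array weights and 5 to 9 with each array left out, against 4. The members' median log2 difference was 0.05 with values as deposited and 0.06 with array weights, and -0.01 to 0.04 with each array left out, against 0.01. Over all probe sets, 28 passed, against 14 with 1 added, 17 once dim ones were dropped, 45 with array weights, and 8 to 104 with each array left out (8 without null_60, 104 without CONTROL_406 and 18 without CONTROL_421). The cause was not tested. The share of the whole array at the unadjusted level is not given for these alternatives. The members' counts at that level therefore have no background there, and no excess can be read from them. Of 43 named member probe sets, 19 had a difference of the opposite sign under at least 1 alternative, and 0 of the 43 were past the threshold in any. C1galt1c1 and Fut8 kept a negative difference, and the dim probe sets of B3galt1 and Gcnt2 a positive one, in every alternative in which they were tested. Muc3 missed the threshold with 1 added (adjusted p = 0.222), 64 added (0.0651) and array weights (0.0777). Where leaving out an array left 1 control, its spread was taken from the null group. No paired analysis was possible because the sample numbers are not shared between the groups. The median SE of a member's difference was 0.19, with 3 against 2 arrays, and intensities near 0 limit what B3galt1, B3galt2 and Fut9 can show.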
